A study of Mus musculus with 3 samples.

Results

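The genes described here are 60 cytochrome P450 genes of the mouse, measured in kidney RNA. They are the genes whose only platform symbol has the form of a P450 name (Cyp, family number, subfamily letter, gene number), without the *Cyp4a*, *Cyp4b* and *Cyp2j* genes and without *Cyp24a1*, *Cyp27b1* and *Cyp51*, which makes 60 of the 18195 genes with a single-symbol probe set and leaves out 12 other P450 genes. The samples were kidneys of male C57BL/6J mice, 16 weeks old: 1 sample from uninephrectomy alone and 2 from the cardio-renal syndrome model, each on 1 array. In the cardio-renal model the abdominal aorta was constricted below the branching of the renal arteries and 1 kidney was taken out 2 weeks later; in all samples the remaining kidney was collected 6 weeks after the nephrectomy. All 3 samples therefore share the loss of 1 kidney, and the contrast is the added aortic banding. The design text lists a sham operation as the alternative to banding, and the labels do not say whether the uninephrectomy sample had one, or whether a sample is 1 mouse.

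P450 enzymes are haem proteins that insert an oxygen atom into a substrate, taking electrons from NADPH through P450 oxidoreductase in the endoplasmic reticulum or through adrenodoxin in mitochondria. Members of families 1 to 3 act mainly on drugs, toxins and fatty acids, family 4 on fatty acids, and the remaining families on defined endogenous substrates such as cholesterol, steroid hormones, retinoic acid and vitamin D. In the kidney many P450 transcripts sit in the proximal tubule, and in mice several of them differ between the sexes.

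All 12 proximal tubule, 7 loop and distal nephron and 4 podocyte markers with a probe set passed the filter on dim genes described next. So did 11145 of all 18195 genes. The cardio-renal arrays are called array 1 and array 2. Their median signals were 105.9 and 102.0, beside 100.1 for uninephrectomy. Array 1 stood apart. Among the 11145 genes above the filter, the array lying away from the other two was array 1 for 42.3%, the uninephrectomy array for 26.7% and array 2 for 31.0%. Among the P450 genes above the filter the same counts were 9, 7 and 3 of 19. All results below are therefore given for each cardio-renal array by itself.

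The values are MAS5 signals, a linear measure of probe set brightness, and differences are on a log2(signal + 28.8) scale, which understates changes of dim genes. In counts of genes, at least 2-fold means at least 1 apart on that scale. A gene passed the filter when its mean on that scale over the 3 arrays reached 7.02, the median of all probe sets. By this criterion 19 of the 60 P450 genes passed and 41 did not, where 11145 of all 18195 genes passed. The 19 comprised 10 of the 37 genes of families 1 to 3, 3 of the 8 family 4 genes, 3 of the 6 bile acid and cholesterol genes, 1 of the 5 steroid hormone genes, 1 of the 3 retinoic acid and vitamin D genes, and the orphan *Cyp20a1*. In these counts *Cyp2r1* stands with the retinoic acid and vitamin D genes and not with families 1 to 3. The 41 dim genes had signals from 3.18 to 95.6 on the uninephrectomy array, 3.16 to 118.8 on array 1 and 1.96 to 117.8 on array 2, close to or below the array medians. A signal belongs to its probe set, so the signals of different genes are not compared as amounts of transcript.

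**Figure D1:**
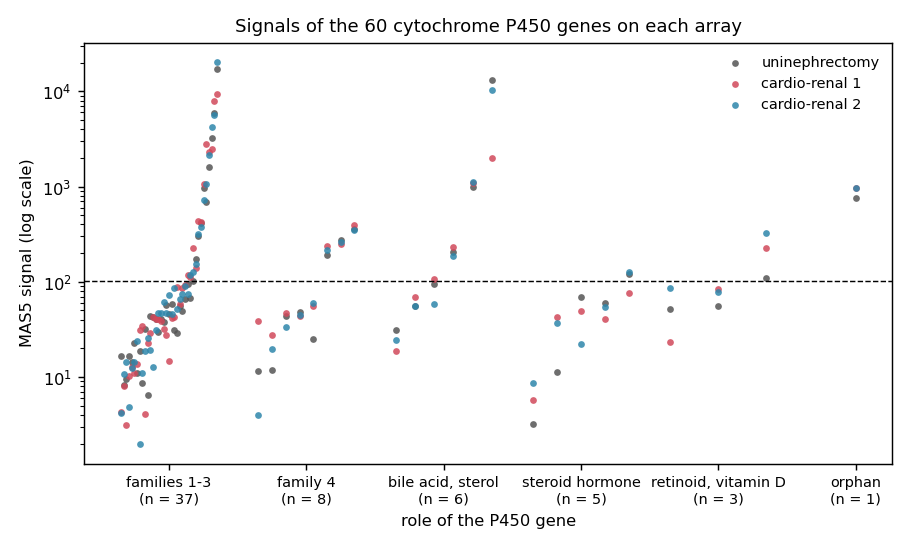
MAS5 signal (log axis) of each of the 60 P450 genes on the uninephrectomy array (grey), cardio-renal array 1 (red) and cardio-renal array 2 (blue), arranged by role and, within a role, by mean signal. The dashed line marks the signal that corresponds to the filter of 7.02 on the log2 scale. Below it lie the means of 41 genes, among them 27 of the 37 genes of families 1 to 3, which leave out *Cyp2r1*, placed with vitamin D.

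The widest differences were in 4 genes. *Cyp26b1*, which degrades retinoic acid, had 2.08 times the uninephrectomy signal in array 1 and 2.99 times in array 2. *Cyp2c23*, an arachidonic acid epoxygenase, had 4.08 and 1.55 times. *Cyp7b1*, an oxysterol hydroxylase, stood at 0.153 and 0.784 of uninephrectomy, and *Cyp2e1*, the ethanol-inducible enzyme, at 0.541 and 1.18. By signal ratio alone *Cyp2c68* was past 2-fold too, at 2.20 in array 1. The other 15 genes above the filter were less than 2-fold apart on the log2 scale between any arrays, and none of the 19 passed a test.

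In limma's fit over all genes, which tested cardio-renal against uninephrectomy samples, 0 of the 19 P450 genes passed a Benjamini-Hochberg adjusted p of 0.05 in either direction, and 0% of all genes were called higher and 0% lower. The adjusted p was 0.9998 for each of the 19, between 0.9995 and 0.99996 over the alternative settings for the named genes, and the lowest of any gene was 0.154. At an unadjusted limma p under 0.05 there were 3 of the 19 P450 genes (15.8%), *Cyp26b1*, *Cyp2d12* and *Cyp2c23*, and 2.51% of all genes. With 1 array against 2, an exact permutation test of a single gene cannot give a two-sided p below 0.333. The counts and folds below therefore describe these arrays. The differences of both cardio-renal arrays are taken from the same uninephrectomy array, so the uninephrectomy sample by itself could give both the same sign.

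Of the 19 genes, 8 were higher than uninephrectomy in both cardio-renal arrays (42.1%, against 30.7% of all genes), 3 were lower in both (15.8%, against 29.8%) and 8 had opposite signs (42.1%, against 39.6%). Their median log2 difference was 0.16 in array 1 and 0.08 in array 2, where the medians of all genes were 0.0085 and -0.0028. These shares and medians depended on the choice of probe set. As means of probe sets, 6 of 18 genes were higher in both arrays, and the array 2 median was -0.05. Of the 19, 0 were at least 2-fold higher in both arrays on the log2 scale (0.135% of all genes) and 0 at least 2-fold lower (0.0538%). By signal ratio *Cyp26b1* was past 2-fold higher in both, at 2.08 in array 1 and 2.99 in array 2. On the log2 scale 4 of 19 were at least 2-fold apart between some pair of arrays (21.1%), where 1.69% of all genes were. These were *Cyp7b1*, *Cyp2e1*, *Cyp2c23* and *Cyp26b1*. The median distance between the highest and the lowest array was 0.51 on the log2 scale for the P450 genes and 0.24 for all genes.

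**Figure D2:**
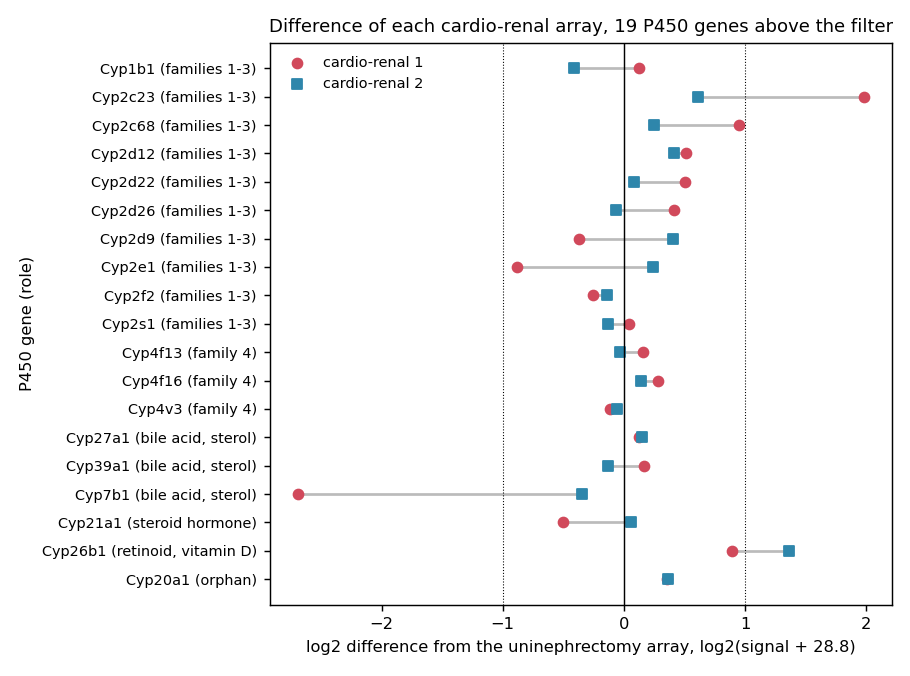
Log2 difference of cardio-renal array 1 (red circles) and array 2 (blue squares) from the uninephrectomy array for the 19 P450 genes above the filter, grouped by role; grey bars join the 2 arrays and dotted lines mark 2-fold. *Cyp7b1* at -2.69 and *Cyp2c23* at 1.98 lie past 2-fold in array 1, and *Cyp26b1* at 1.36 does so in array 2.

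Which genes crossed 2-fold depended on the array. The counts here are on the log2 scale with its offset. In array 1, 1 of 19 was at least 2-fold higher than uninephrectomy on that scale, *Cyp2c23* (0.493% of all genes). In the same array 1 was at least 2-fold lower, *Cyp7b1* (0.619% of all genes). By signal ratio *Cyp26b1* (2.08) and *Cyp2c68* (2.20) were past 2-fold higher in array 1 too. Their log2 differences there were 0.89 and 0.95. In array 2, 1 was at least 2-fold higher, *Cyp26b1* (0.224% of all genes), and 0 were lower (0.206% of all genes). Between the cardio-renal arrays themselves, which are 2 samples of the same group, 1 gene was at least 2-fold higher in array 1, *Cyp2c23* (0.422% of all genes), and 2 were lower, *Cyp2e1* and *Cyp7b1* (0.592% of all genes). For *Cyp7b1*, *Cyp2e1* and *Cyp2c23* the distance between the replicates was thus past 2-fold, and for the first of them it came to 2.34 on the log2 scale.

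**Figure D3:**
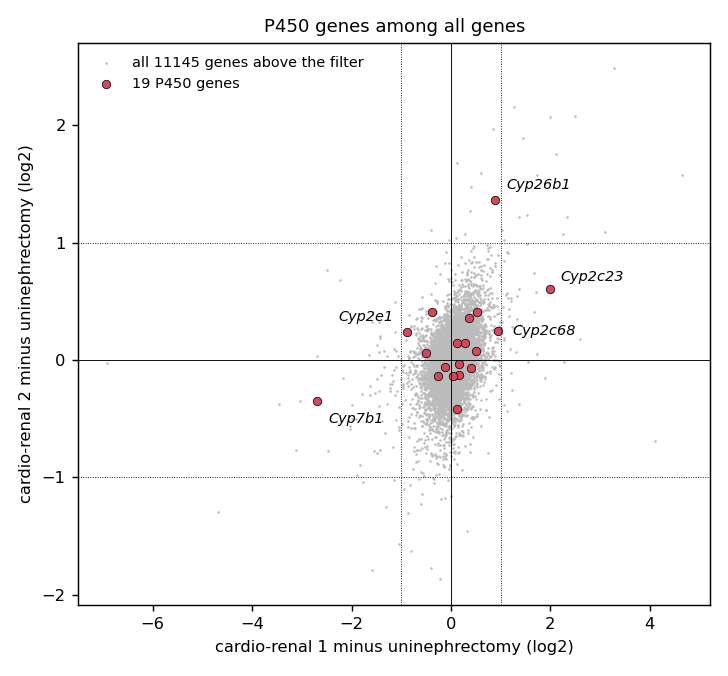
Log2 difference from the uninephrectomy array in cardio-renal array 1 (x axis) and array 2 (y axis) for all 11145 genes above the filter (grey) and the 19 P450 genes (red); dotted lines mark 2-fold. Both axes share the uninephrectomy array. *Cyp7b1* and *Cyp2c23* lie out along the array 1 axis, and *Cyp26b1* lies above 2-fold on the array 2 axis.

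Among the genes of cholesterol and bile acid metabolism, *Cyp7b1* (Entrez gene 13123), the oxysterol and steroid 7-alpha-hydroxylase of the alternative bile acid pathway, had signals of 13094 with uninephrectomy, 2003 in array 1 and 10266 in array 2. Array 1 was the low one, and array 2 lay near the uninephrectomy sample. The log2 differences were -2.69 and -0.35, a mean of -1.52 ± 1.66 (SD, n = 2), so the spread between the cardio-renal arrays exceeded the mean difference (limma unadjusted p = 0.0801, adjusted p = 0.9998). A second bright probe set for the gene gave 8520, 1251 and 5970, ratios to uninephrectomy of 0.147 and 0.701, where the probe set used gave 0.153 and 0.784. The third probe set was dim on all arrays, at 29.3, 21.7 and 29.4. In whole-kidney RNA, fewer cells of a type and less RNA per cell cannot be told apart.

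The mitochondrial sterol 27-hydroxylase *Cyp27a1* gave 999.7, 1094 and 1111, and lay 0.14 ± 0.02 higher on the log2 scale (SD, n = 2). It was among the steadiest of the 19, with the cardio-renal arrays only 0.02 apart. Its other probe set was dim and lower in both cardio-renal arrays, at 7.95, 5.21 and 7.40. As the mean of its probe sets the gene's difference was 0.035. *Cyp39a1*, an oxysterol 7-alpha-hydroxylase, had 205.5, 233.7 and 185.1, with opposite signs in the arrays. The other three were dim. *Cyp46a1*, the cholesterol 24-hydroxylase of neurons, had signals of 95.6, 106.6 and 59.0. *Cyp7a1*, the rate-limiting enzyme of classical bile acid synthesis in liver, had 31.4, 18.6 and 24.7. *Cyp8b1*, the sterol 12-alpha-hydroxylase, had 55.2, 69.0 and 55.4. These values stood below the array medians, except for *Cyp46a1* in array 1.

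In families 1 to 3, the ethanol-inducible *Cyp2e1* (Entrez gene 13106), which oxidises small molecules such as ethanol and acetone, had signals of 17279, 9348 and 20431. Array 1 was again low, at 0.541 of uninephrectomy, and array 2 was slightly high, at 1.18. The mean log2 difference was -0.32 ± 0.80 (SD, n = 2). *Cyp2d9*, a steroid 16-alpha-hydroxylase that is male-biased in mouse liver, had the same order of arrays, with signals of 3209, 2472 and 4267 and differences of -0.37 and 0.41. Its probe set carries an identifier that marks sequence shared by several transcripts, so it is not certain to separate *Cyp2d9* from its close relatives.

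The order of arrays seen for *Cyp7b1*, *Cyp2e1* and *Cyp2d9*, low in array 1, was set beside kidney genes known to be sex-biased. All 8 male-biased genes with a probe set, P450 genes left out by the rule among them, had a lower signal in array 1 than with uninephrectomy. Their summed signal was 126412 with uninephrectomy, 78155 in array 1 and 133445 in array 2. Their median log2 differences were -1.05 and 0.03, where the medians of all genes were 0.0085 and -0.0028. *Slco1a1*, an androgen-dependent anion transporter, had signals of 6161, 22.5 and 6064, and the androgen-regulated *Kap* had 39782, 29674.5 and 40588. *Acsm3* had 11234, 1721 and 11485, *Odc1* 18297, 13963 and 17570.3, and *Slc7a13* 17092, 10761 and 20403. *Cyp4b1* had 25412, 19549 and 25824, *Cyp4a12a* 3238, 550.1 and 5518, and *Cyp2j13* 5195, 1913 and 5993. For the 4 female-biased genes the median was 1.44 in array 1 and 0.21 in array 2. Of these, *Slc7a12* (213.4, 6011 and 695.2), *Abcc4* (1491, 4986 and 1543) and *Cyp4a14* (3036, 6832 and 3957) were high in array 1, and *Akr1c18* (1246, 20.8 and 491.9) was low. All 3 samples are labelled male, and the part of these differences in those of the P450 genes was not tested.

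*Cyp2c23* (Entrez gene 226143), listed as *Cyp2c44* in older annotation, encodes an arachidonic acid epoxygenase. Its signals were 684.6, 2792 and 1059, ratios of 4.08 in array 1 and 1.55 in array 2. Both cardio-renal arrays were high, and array 1 was much the higher. The mean log2 difference was 1.30 ± 0.97 (SD, n = 2; limma adjusted p = 0.9998). The gene has 1 probe set, whose identifier marks shared sequence, and without such probe sets it has no value. *Cyp2c68* was higher too, at 102.2, 225.0 and 126.9, with differences of 0.95 and 0.25, and again array 1 was the high one. The 9 other *Cyp2c* genes were dim, with signals of 8.58 to 95.1 on the uninephrectomy array, 4.29 to 118.8 on array 1 and 4.19 to 85.2 on array 2.

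Hepatocyte markers were looked at beside these genes, since liver is rich in *Cyp2c* transcripts. Of 10 with a probe set 6 passed the filter, where 11145 of all 18195 genes did. The list summed to 19107 with uninephrectomy, 22231 in array 1 and 20687 in array 2. The sum was led by *Ttr* (13426, 12522 and 14321), which was lower in array 1, and by *Apob*, which was higher there. Of the 6, 2 were higher than uninephrectomy in both cardio-renal arrays (33.3%, against 30.7% of all genes). Lower in both were 2 (33.3%, against 29.8%), and 2 had opposite signs (33.3%, against 39.6%). These shares lay near those of all genes. The albumin gene *Alb* (216.9, 775.3 and 337.9) and *Apob* (4066, 7272 and 4849) had the order of arrays of *Cyp2c23*. The lower ones were *Apoa2* (447.6, 389.3 and 378.2) and *Fgb* (195.5, 161.9 and 136.2), and *Ttr* and *Fga* had opposite signs. *Ahsg*, *Hpx*, *Tat* and *Apoa1* did not pass the filter; *Ahsg* had 6.47, 6.63 and 5.30. The liver-expressed P450 genes *Cyp3a11* (43.8, 28.9 and 19.4), *Cyp2c29* (57.9, 42.0 and 45.5) and *Cyp1a2* (32.0, 4.11 and 18.7) were dim and lower in both cardio-renal arrays, whereas *Cyp2c70* (49.6, 85.2 and 73.7), *Cyp2d10* (29.6, 40.4 and 46.9) and *Cyp2a12* (6.44, 23.0 and 25.8), which liver also expresses, were dim and higher in both. The part of liver RNA in the *Cyp2c* signals was not tested.

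The *Cyp2d* genes gave 4 of the 19 and differed among themselves. *Cyp2d12* had signals of 1599.7, 2299.8 and 2138, and lay 0.46 ± 0.07 higher on the log2 scale (SD, n = 2), with both cardio-renal arrays high and close to each other. *Cyp2d22* had 299.6, 438.2 and 318.2, and its second probe set had 323.7, 399.6 and 314.5, which lies below uninephrectomy in array 2. *Cyp2d26* had 5942, 7920 and 5669, high in array 1 alone. In the RefSeq table for GRCm38.p6, *Cyp2d22*, *Cyp2d10*, *Cyp2d9*, *Cyp2d12*, *Cyp2d34*, *Cyp2d40* and *Cyp2d26* follow each other on 1 chromosome with at most 1 other protein-coding gene between neighbours. Neighbours in that row therefore had unlike orders of arrays: *Cyp2d9* was lowest in array 1, where *Cyp2d12* and *Cyp2d26* were highest. The dim members of the subfamily, *Cyp2d10*, *Cyp2d13*, *Cyp2d34* and *Cyp2d40*, had signals of 28.7 to 40.8, 32.2 to 87.4 and 31.5 to 61.1 on the 3 arrays.

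The proximal promoters of *Cyp2e1* and *Cyp2d9*, which shared an order of arrays, of *Cyp2d26*, a relative of *Cyp2d9* with another order, and of *Cyp26b1*, which had the largest difference above uninephrectomy by the smaller of its 2 array differences, are shown for that contrast. They are the 250 bases before the annotated start, 5' to 3' on the gene's strand, from RefSeq on GRCm38.p6. Capitals mark every match, on either strand, to 5 motifs: the TATA box TATAAA, the STAT motif TTCNNNGAA, the nuclear receptor core AGGTCA, the androgen and glucocorticoid receptor core AGAACA and the HNF1 core GTTAAT.
Cyp2e1 (chr7:140763569-140763818, plus strand): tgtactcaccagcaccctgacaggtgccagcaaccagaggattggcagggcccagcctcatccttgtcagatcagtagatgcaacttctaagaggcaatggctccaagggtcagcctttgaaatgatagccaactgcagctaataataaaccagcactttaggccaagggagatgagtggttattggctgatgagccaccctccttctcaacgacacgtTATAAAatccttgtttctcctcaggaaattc
Cyp2d9 (chr15:82452127-82452376, plus strand): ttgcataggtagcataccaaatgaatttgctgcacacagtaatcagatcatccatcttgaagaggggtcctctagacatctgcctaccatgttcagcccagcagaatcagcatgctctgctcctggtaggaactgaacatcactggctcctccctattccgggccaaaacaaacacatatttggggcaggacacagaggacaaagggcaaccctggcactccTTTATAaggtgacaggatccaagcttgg
Cyp2d26 (chr15:82794246-82794495, minus strand): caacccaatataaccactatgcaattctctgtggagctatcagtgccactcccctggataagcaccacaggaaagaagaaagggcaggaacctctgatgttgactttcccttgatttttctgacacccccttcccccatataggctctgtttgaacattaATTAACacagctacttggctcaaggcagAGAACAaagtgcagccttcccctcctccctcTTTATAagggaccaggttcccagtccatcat
Cyp26b1 (chr6:84593811-84594060, minus strand): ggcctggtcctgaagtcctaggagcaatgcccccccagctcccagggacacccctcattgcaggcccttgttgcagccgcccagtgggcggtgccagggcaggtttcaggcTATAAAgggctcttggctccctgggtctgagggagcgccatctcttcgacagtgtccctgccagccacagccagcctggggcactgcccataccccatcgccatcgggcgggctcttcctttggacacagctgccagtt
*Cyp2e1* held TATAAA at -31 to -26 from the start, *Cyp2d9* held it on the opposite strand at -28 to -23 and *Cyp2d26* on the opposite strand at -31 to -26. *Cyp2d26* also held AGAACA at -62 to -57 and GTTAAT on the opposite strand at -90 to -85. In *Cyp26b1* TATAAA stood at -139 to -134. No other match to these letters lay in the 4 windows, and no match overlapped another. Of the 19 genes above the filter 13 had a promoter in the table, and TATAAA was found in 4 of them, GTTAAT in 2, and TTCNNNGAA, AGGTCA and AGAACA in 1 each. Over all 32851 promoter windows the shares were 12.4% for TATAAA, 7.02% for TTCNNNGAA, 14.02% for AGGTCA, 16.1% for AGAACA and 6.43% for GTTAAT. A match is a description of the letters only.

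In the other genes of families 1 to 3 above the filter all differences were under 2-fold. *Cyp1b1*, which metabolises oestrogens, retinoids and polycyclic hydrocarbons, had signals of 965.5, 1055 and 718.1, low in array 2 alone, and a second probe set with 241.4, 300.1 and 195.5 had the same order. *Cyp2f2*, best known from the airway, had 173.4, 140.3 and 154.8, with differences of -0.26 and -0.14. *Cyp2s1*, an extrahepatic enzyme, had 412.4, 425.3 and 373.4, within 0.18 between the cardio-renal arrays. The dioxin-inducible *Cyp1a1* was dim, at 65.5, 92.1 and 89.6. The dim *Cyp2b* genes had signals of 1.96 to 72.9 across the arrays, and the *Cyp3a* genes 3.16 to 65.5. *Cyp2g1*, known from the olfactory mucosa, had 8.16, 8.08 and 10.7. *Cyp2u1*, a fatty acid hydroxylase, had 67.6, 112.4 and 117.8, but its second probe set had 72.3, 28.1 and 84.4, so the probe sets disagree for array 1.

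Of the retinoic acid and vitamin D genes, *Cyp26b1* (Entrez gene 232174), which degrades retinoic acid, passed the filter. Its signals were 110.1 with uninephrectomy, 228.8 in array 1 and 328.8 in array 2, ratios of 2.08 and 2.99. Both cardio-renal arrays were high, and the distance between them was smaller than the distance of either from uninephrectomy. The mean log2 difference was 1.13 ± 0.33 (SD, n = 2), with a limma adjusted p of 0.9998, and the gene has 1 probe set. With a smaller offset of 7.20 both arrays were past 2-fold. Its relative *Cyp26a1* was dim, at 52.4, 23.6 and 86.3, low in array 1 and high in array 2. *Cyp2r1*, a vitamin D 25-hydroxylase, was dim too, at 55.3, 83.3 and 78.2. The retinoic acid receptors had no common order: *Rarg* had 259.5, 295.9 and 349.5, *Rarb* 383.6, 374.2 and 296.1, and the dim *Rara* 65.8, 19.0 and 71.6.

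**Figure D4:**
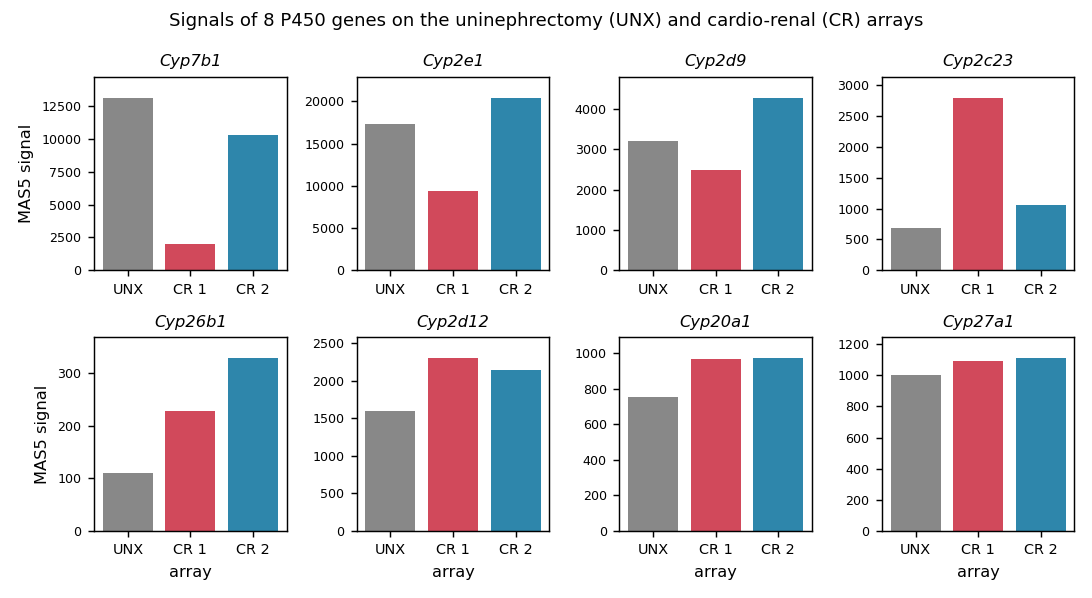
MAS5 signal of 8 P450 genes on the uninephrectomy array (UNX, grey) and cardio-renal arrays 1 (red) and 2 (blue), 1 array per bar, so no error bar is drawn; each panel has its own axis from 0. *Cyp7b1*, *Cyp2e1* and *Cyp2d9* are lowest in array 1, *Cyp2c23* is highest there, and *Cyp26b1*, *Cyp2d12*, *Cyp20a1* and *Cyp27a1* are higher than uninephrectomy in both cardio-renal arrays.

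The steroid hormone genes were dim or near the filter. *Cyp21a1*, the adrenal 21-hydroxylase, passed with signals of 120.6, 76.9 and 126.9, low in array 1 alone; its other probe set had 35.6, 37.3 and 21.0. *Cyp11a1*, the cholesterol side-chain cleavage enzyme, had 59.3, 41.1 and 54.7, and *Cyp17a1*, the 17-alpha-hydroxylase, had 3.18, 5.68 and 8.65. *Cyp11b1*, which makes corticosterone, had 11.3, 43.1 and 37.2, and *Cyp11b2*, the aldosterone synthase, had 69.0, 49.1 and 22.5. The direction thus differed between the 2 *Cyp11b* genes, both at signals below the array medians.

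Adrenal tissue lies beside the kidney, and its markers were set beside these values. Of 7 adrenal cortex markers with a probe set 1 passed the filter, where 11145 of all 18195 genes did. It was *Scarb1*, which other tissues also express. *Star* had signals of 68.6, 106.3 and 81.7, *Hsd3b1* 7.76, 5.56 and 5.35, and *Mc2r* 14.7, 3.17 and 26.1. *Nr0b1* had 37.4, 9.93 and 6.12, *Nr5a1* 28.9, 15.6 and 56.1, and *Mrap* 17.5, 19.7 and 26.0. The cortex list summed to 383.7 with uninephrectomy, 446.5 in array 1 and 462.8 in array 2. *Scarb1* alone had 208.8, 286.2 and 261.4, and the 6 dim markers without it summed to 174.9, 160.3 and 201.4, lower in array 1 and higher in array 2. The 5 medulla markers summed to 334.9, 467.4 and 460.8, and of them *Dbh* and *Pnmt* passed. The part of adrenal RNA in the *Cyp11b1* signals was not tested.

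Family 4 genes outside the *Cyp4a* and *Cyp4b* groups, which hydroxylate fatty acids, leukotrienes and related lipids, stayed close together. *Cyp4f13* had signals of 354.8, 399.3 and 347.1, and *Cyp4f16*, at 192.4, 239.6 and 215.4, lay 0.21 ± 0.10 higher on the log2 scale (SD, n = 2). *Cyp4v3*, the counterpart of a human gene of retinal disease, had 272.4, 249.2 and 260.2. All 3 lay within 0.28 of uninephrectomy in both arrays. For *Cyp4f16* and *Cyp4v3* another probe set did not have the same order: it gave 71.4, 57.1 and 42.2 for *Cyp4f16* and 145.4, 183.4 and 120.5 for *Cyp4v3*. The dim *Cyp4f14*, *Cyp4f15*, *Cyp4f18*, *Cyp4f39* and *Cyp4x1* had signals of 3.99 to 59.7 across the arrays; *Cyp4f39*, an enzyme of skin barrier lipids, had 25.1, 55.3 and 59.7.

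*Cyp20a1*, an orphan P450 without an established substrate, had signals of 750.4, 969.5 and 971.6. The cardio-renal arrays were 0.0031 apart, the closest of the 19, and both were higher than uninephrectomy by 0.36 ± 0.0022 on the log2 scale (SD, n = 2; limma unadjusted p = 0.0677, adjusted p = 0.9998). Its 2 other probe sets were dim, at 53.8, 35.7 and 35.2 and at 44.5, 50.5 and 34.8, and did not have this order; as the mean of its probe sets the gene's difference was -0.0164.

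Genes that P450 enzymes depend on were followed in lists of their own. Of 19 listed genes for redox partners and haem supply 16 had a probe set, all above the filter; 0 passed limma's test with adjustment, up or down, and 0 had a p under 0.05 before adjustment, as 2.51% of all genes did. Both cardio-renal arrays were higher for 5 (31.25%, against 30.7% of all genes) and lower for 4 (25%, against 29.8%), and the median differences were -0.06 and 0.04. Ranked by the smaller of the 2 array differences, those furthest from uninephrectomy were *Ppox* of haem synthesis (0.24 ± 0.09, SD, n = 2), the haem oxygenase *Hmox1* (-0.41 ± 0.38), *Pgrmc2*, a haem-binding membrane protein (-0.13 ± 0.02), and the reductase *Cyb5r1* (0.21 ± 0.17). P450 oxidoreductase was not among the 16 genes, so these values do not cover it. Cytochrome b5, *Cyb5a*, had signals of 22610, 20628 and 23966, and *Alas1*, the rate-limiting enzyme of haem synthesis in most tissues, had 4091, 3885 and 4680. Of 35 listed regulators of P450 genes 31 had a probe set and 22 passed the filter; 0 passed limma's adjusted test in either direction, and the count under 0.05 before adjustment was 0 too, beside the same 2.51% of all genes. Both cardio-renal arrays were higher for 11 (50%, against 30.7% of all genes) and lower for 6 (27.3%, against 29.8%), and the median differences were 0.16 and 0.08. The clock-controlled *Dbp* had the widest single difference, 1.55 in array 1, with signals of 471.2, 1440 and 464.8, and lay at uninephrectomy in array 2. By the smaller of the 2 array differences the list was led by the xenobiotic receptor PXR, *Nr1i2* (-0.40 ± 0.08, SD, n = 2), with signals of 140.7, 94.7 and 105.4, *Dbp*'s relative *Tef* (0.36 ± 0.08), the fatty acid receptor *Ppara* (0.33 ± 0.07) and *Stat5a* (0.35 ± 0.19). The xenobiotic receptor CAR, *Nr1i3*, was dim at 8.18, 7.11 and 6.45.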

How the data were processed

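Per the labels' protocols, total RNA was extracted with a guanidinium-phenol reagent, and 250 ng per sample was amplified and labelled with biotin by a kit that primes at the 3' end, for 1 array per sample. The deposited values are intensities, linear MAS5 signals per the submitters' processing notes, without detection calls and with no MAS5 version stated. Trimming 2% at each end gave a mean of 500.0 on every array, so nothing further was normalized. The platform's annotation table gave 1 symbol to 34958 of 45101 probe sets and several to 932, which were not used; symbols were updated through RefSeq Entrez IDs (34754 matched, all 60 P450 genes among them). For each gene the probe set with the highest signal averaged over the arrays was taken. The offset of 28.8 before log2 is the 25th percentile of each array, as a median over the arrays.

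Cardio-renal and uninephrectomy samples were compared with limma 3.58.1 (R 4.3.3; lmFit, then eBayes with a trend) on all 11145 genes above the filter; tests were two-sided and p-values were adjusted by Benjamini-Hochberg, with a threshold of 0.05. The fit leaves 1 residual degree of freedom and takes the variance of the lone uninephrectomy array to equal that of the cardio-renal pair. P-values measure the spread between these samples, which may be technical; the number of arrays limits the precision. The fit was tested on simulated data. Named genes were the 10 with the highest signal, up to 8 furthest above and below uninephrectomy by the smaller of the 2 array differences, those at least 2-fold apart between arrays, and all of 3 roles; of the other lists, up to 4 genes each were named by the same ranking. Other genes named in the text, within subfamilies, roles and the other lists, were chosen after their values were seen. The genes and lists were chosen with earlier results of these data known. The female-biased list had 5 genes and the male-biased list 9, of which 4 and 8 had a probe set. Alternatives covered normalization, offset, filter, probe set choice, variance model and leaving out an array.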

Additional observations from a re-analysis of the deposited data

How the results depend on the processing

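With limma's adjusted p, 0 of the P450 genes passed under every alternative run. Of 18 named P450 genes, 7 had a value under each of the 9 alternatives of normalization, offset, filter, probe set choice and variance model; 9 had none in the upper quartile, 3 (*Cyp2c23*, *Cyp2d9* and *Cyp2f2*) none without shared-sequence probe sets, and 1 (*Cyp21a1*) none as a mean of probe sets. Where they had values, 13 kept their sign and 5 changed it: *Cyp39a1* to -0.0078 after quantile normalization, *Cyp1b1* to 0.0125, *Cyp20a1* to -0.0164 and *Cyp4f16* to -0.0745 as means of probe sets, and *Cyp4v3* to 0.0309 without shared-sequence probe sets, the last 4 because other probe sets enter. The signs and medians of the P450 genes as a set moved too. As means of probe sets, 6 of 18 were higher than uninephrectomy in both cardio-renal arrays, beside 3241 of 10166 among all genes. In that setting 2 of the 18 were lower in both and 10 had opposite signs. Their median differences were 0.12 in array 1 and -0.05 in array 2. The counts at 2-fold were small and moved. In array 1 against uninephrectomy the genes at least 2-fold higher numbered 3 with an offset of 7.20, 2 with no filter and 0 without shared-sequence probe sets, which removes *Cyp2c23*. In array 2 they numbered 0 with an offset of 115.2 and 0 in the upper quartile of signals, where *Cyp26b1* is not kept. Between the cardio-renal arrays, the genes higher in array 1 numbered 2 with no filter and 0 without shared-sequence probe sets, and those lower numbered 1 after quantile normalization and 4 with no filter. At least 2-fold higher in both arrays was 1 gene with an offset of 7.20. Leaving out 1 cardio-renal array gave 1 gene at least 2-fold higher either way (*Cyp26b1* without array 1, *Cyp2c23* without array 2) and 0 to 1 lower (*Cyp7b1* without array 2); these have no residual degrees of freedom and no test. Leaving out an array turned the sign of 7 named genes, 5 of them among the 13: the values ran from -0.884 to 0.241 for *Cyp2e1*, -0.373 to 0.408 for *Cyp2d9*, -0.0674 to 0.413 for *Cyp2d26*, -0.499 to 0.0596 for *Cyp21a1*, -0.134 to 0.0413 for *Cyp2s1*, -0.413 to 0.125 for *Cyp1b1* and -0.131 to 0.164 for *Cyp39a1*. The medians and pairwise counts without an array are those given for the other array and were not recomputed. No paired analysis was possible because the labels number no replicates and 1 group has 1 sample. Dim probe sets limit the 41 genes below the filter, whose MAS5 signals are noisy.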

Other observations

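Probe sets with several gene symbols were left out of the P450 genes by the rule, and 3 of them name such genes. The one shared by *Cyp2a4* and *Cyp2a5*, steroid and coumarin hydroxylases that are near-identical copies, had signals of 9484 with uninephrectomy, 7470.5 in cardio-renal array 1 and 13024 in array 2, log2 differences of -0.34 and 0.46. It was low in array 1 and high in array 2. The one shared by *Cyp4f37* and *Cyp4f16* had 139.2, 218.5 and 136.2, high in array 1 alone. The one shared by *Cyp3a41a* and *Cyp3a41b* was dim, at 3.66, 11.98 and 6.30.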
